A study of Mus musculus with 7 samples.

Results

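The genes described here are the 34 enzymes and regulators of sterol and fatty acid synthesis that a list of gene symbols picked out of the 35013 symbols in the count table. All 34 symbols were found. The list was divided into a sterol arm of 22 genes and a fatty acid arm of 12 genes. The sterol arm held 17 enzymes (Hmgcs1, Mvk, Pmvk, Mvd, Idi1, Fdps, Fdft1, Sqle, Lss, Cyp51, Tm7sf2, Msmo1, Nsdhl, Hsd17b7, Ebp, Sc5d and Dhcr7) with Srebf2, Scap, Insig1, Insig2 and Stard4. The fatty acid arm held 11 enzymes (Acss2, Acly, Acaca, Acacb, Fasn, Scd1, Scd2, Elovl5, Elovl6, Fads1 and Fads2) with Srebf1. The rule that picks them is their gene symbol and uses no measured value, although the list was drawn up with earlier results of these data known.

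Both pathways start from acetyl-CoA. The mevalonate pathway joins acetyl units into isoprenoids and then squalene, which is closed into a ring and trimmed to cholesterol, while acetyl-CoA carboxylase and fatty acid synthase build saturated fatty acids that elongases and desaturases extend. The transcription factors SREBP-2 (gene Srebf2) and SREBP-1 (gene Srebf1) control them. SCAP carries SREBPs out of the endoplasmic reticulum when membrane sterol is low, INSIG proteins hold SCAP back when sterol is high, and SREBP-2 acts mainly on sterol genes while SREBP-1c acts mainly on fatty acid genes. In β-cells, cholesterol content affects insulin granules and secretion, and citrate leaving the mitochondria supplies fatty acid synthesis through ATP citrate lyase.

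β-cells were sorted from islets of 7 mice and 1 poly-A RNA-seq library was made per mouse. The groups were 2 KO_db/db, 2 db/db and 3 db/+ mice, and they were compared to learn how loss of the retinaldehyde-oxidizing enzyme ALDH1A3 alters diabetic β-cells. Mice were 16 to 20 weeks old, of both sexes, and fasted for 16 h before islets were taken. The KO_db/db mice had both Aldh1a3 alleles floxed (Aldh1a3 fl/fl) together with Lepr db/db. The db/db controls had 1 floxed allele (Aldh1a3 fl/+) with Lepr db/db, and the db/+ controls had Aldh1a3 fl/+ with Lepr db/+. In addition, all 3 groups carried RIP-Cre(Herr), a Cre driven by the rat insulin promoter, and the reporter tdT fl/+, so that recombination was aimed at insulin-expressing cells and the controls carried Cre as well. Lepr db/db mice lack the signalling leptin receptor in every tissue and become obese and diabetic, whereas db/+ mice are lean carriers.

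Total counts ran from 27496645 to 35852785 per library, and levels are given as CPM (counts of a gene relative to the total, as parts of 1000000) scaled by the TMM method over all 7 libraries. The detection floor of 3 counts equalled 0.0717 to 0.123 CPM. Aldh1a3, the targeted gene, had 4.97 and 7.89 CPM in KO_db/db, 98.5 and 194 CPM in db/db, and 0.0730 to 0.589 CPM in db/+ libraries, an order that does not go against the labels. KO_db/db thus had 0.0440 times the mean db/db level. A list of 16 β-cell markers took 26.5% and 26.1% of the counts in KO_db/db, 27.2% and 25.0% in db/db and 34.5% to 38.9% in db/+, and none of its genes was at 0. The KO_db/db library of mouse 1 stood apart in its content of acinar transcripts. The 39 acinar genes took 17.3% of its counts and 1.95% in KO_db/db mouse 2, against 0.0365% and 0.0560% in db/db and 0.00704% to 0.0328% in db/+. The list of 7 adipocyte markers, of cells with high fatty acid synthesis, had a summed level of at most 0.698 CPM in any library, and the macrophage list of 9 genes summed to between 21.7 and 74.8 CPM. The summed counts of 4 genes of the Y chromosome were 2911 in db/+ mouse 3 and from 20 to 79 in the rest. High Y-linked counts were thus seen in that library alone, so sex may not be balanced between the groups. The part of sex in the results was not tested. In sorted cells sequenced in bulk, fewer cells of a type and less RNA per cell cannot be told apart.

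The DNA before the starts of these genes is shown first. RefSeq start sites on GRCm38.p6 were found for 27 of the 34 genes, with 35 windows of 250 bases, and not for Fdps, Fdft1, Sqle, Stard4, Scd1, Scd2 and Fads1. Each window was searched on both strands for TCACNCCAC (the core of a sterol regulatory element, bound by SREBPs), CCAAT (the box bound by NF-Y, a factor that acts with SREBPs) and CACGTG (an E-box). Of the windows, 4 are shown, those of Hmgcs1 and Hsd17b7 for the sterol arm, both higher in db/db, and those of Fasn and Elovl5 for the fatty acid arm, which moved in opposite directions. Letters in capitals mark the matches, and a CCAAT box on the other strand reads ATTGG.
Hmgcs1, chr13:119690101-119690350, plus strand: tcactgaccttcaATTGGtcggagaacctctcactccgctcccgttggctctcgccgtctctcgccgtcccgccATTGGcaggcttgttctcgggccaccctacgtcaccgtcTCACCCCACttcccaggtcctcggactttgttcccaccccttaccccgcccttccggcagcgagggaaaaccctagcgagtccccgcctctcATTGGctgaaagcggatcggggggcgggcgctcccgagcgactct
Hsd17b7, chr1:169969206-169969455, minus strand: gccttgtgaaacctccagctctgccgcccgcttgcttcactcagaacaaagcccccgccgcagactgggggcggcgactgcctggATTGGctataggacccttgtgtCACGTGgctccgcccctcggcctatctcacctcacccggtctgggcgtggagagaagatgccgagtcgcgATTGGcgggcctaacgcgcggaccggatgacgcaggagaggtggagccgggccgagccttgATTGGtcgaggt
Fasn, chr11:120824548-120824797, minus strand: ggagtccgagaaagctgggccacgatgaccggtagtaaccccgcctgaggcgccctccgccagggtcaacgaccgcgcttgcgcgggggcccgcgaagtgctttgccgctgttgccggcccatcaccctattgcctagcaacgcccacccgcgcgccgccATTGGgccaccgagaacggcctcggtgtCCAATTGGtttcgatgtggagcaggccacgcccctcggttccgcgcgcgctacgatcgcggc
Elovl5, chr9:77917115-77917364, plus strand: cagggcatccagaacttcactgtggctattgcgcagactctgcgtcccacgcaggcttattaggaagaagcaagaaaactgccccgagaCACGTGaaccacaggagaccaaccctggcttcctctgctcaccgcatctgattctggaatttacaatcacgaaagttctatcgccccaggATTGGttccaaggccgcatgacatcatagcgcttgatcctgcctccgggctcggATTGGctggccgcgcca

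The Hmgcs1 window held the sterol regulatory element core, 137 to 129 bases before the start, and 3 NF-Y boxes. It was the only one of the 35 windows with that core (2.86%), beside 1.05% of all 32851 RefSeq windows of the same length. Hsd17b7 had 3 NF-Y boxes and an E-box, Fasn had 3 NF-Y boxes of which a pair overlap in the letters CCAATTGG, and Elovl5 had 2 NF-Y boxes and an E-box. Each of the 14 sterol enzyme genes with a window had an NF-Y box in at least 1 window, beside 37.5% of all genes. By window the box lay in 14 of 17 for the sterol enzymes (82.4%), in 17 of 24 for the whole sterol arm (70.8%), in 6 of 11 for the fatty acid arm (54.5%) and in 33.8% of all windows. E-boxes lay in 6 of the 35 windows (17.1%), against 6.02% of all. Of the strings searched, only the NF-Y box was found for every sterol enzyme gene with a window. These include genes that were not higher in db/db, such as Ebp and Tm7sf2. A match of letters is a description of the DNA and was not tested as a binding site.

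**Figure D1:**
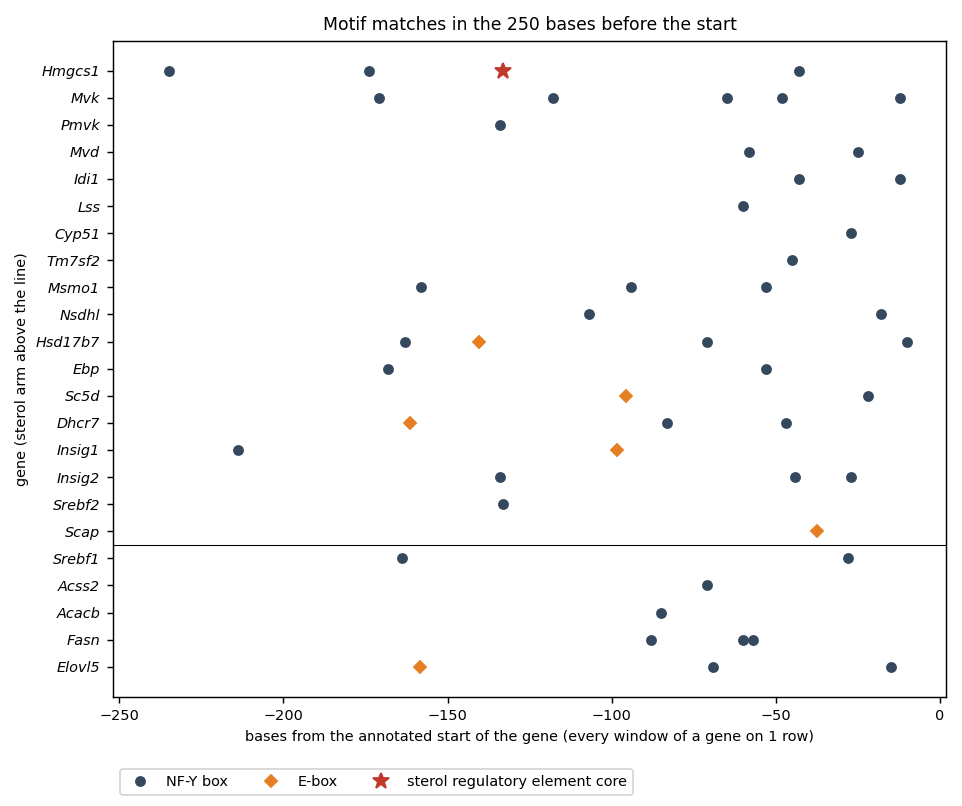
Positions of motif matches in the 250 bases before the annotated start of each gene (x axis, bases from the start), 1 row per gene with a match, with every window of a gene on its row. Circles are NF-Y boxes, diamonds E-boxes and the star the sterol regulatory element core. NF-Y boxes are spread over the rows of the sterol arm, and the single star lies in Hmgcs1.

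Sterol synthesis genes were higher in db/db than in db/+ β-cells. Of the 22 genes of the sterol arm, 14 were higher, 2 were lower and 6 did not pass the test at an adjusted p under 0.05. Over all 13406 genes tested, 19.9% were higher and 18.0% were lower. The median log2 fold change was 0.98 in the sterol arm and 1.07 among its 17 enzymes, of which 12 rose, compared to 0.0064 over all genes. Of the fatty acid arm, 5 of 12 genes were higher, 4 were lower and 3 did not pass, with a median of 0.39. The higher genes include Acacb, which had 1 count over the db/+ group and passed the filter on low counts through its db/db libraries. Its call is therefore no separate support for a rise of the arm. Setting Acacb at its bound against the detection floor left the median at 0.39. It could not move the median, because Acacb was the largest of the 12 values either way. Without Acacb the middle value of the arm was that of Fads1, 0.19. With library size alone as the scaling, the calls were 19 higher and 0 lower in the sterol arm and 7 higher and 2 lower in the fatty acid arm, where 44.5% of all genes were higher and 5.97% lower. Without db/db mouse 1 the medians were 1.35 in the sterol arm and 0.72 in the fatty acid arm, and without db/db mouse 2 they were 0.57 and 0.05. Cell type markers moved with this comparison as well. Of the 16 β-cell markers 13 were lower and 0 higher, and of 5 ductal genes tested 4 were higher, with a summed level of the 8 ductal genes of 399 and 547 CPM in db/db, 404 and 472 CPM in KO_db/db and 266 to 267 CPM in db/+. Of the other marker lists, 2 of 3 delta-cell genes tested were lower. Higher were 2 of 5 endothelial, 2 of 5 macrophage, 1 of 5 alpha-cell and 3 of 32 acinar genes. No tested gene of the Reg, PP-cell and stellate lists passed. The part of these cell types in the result was not tested. Every fold change below is given on the log2 scale, from the quasi-likelihood test of edgeR, with p-values adjusted over all genes tested after Benjamini and Hochberg.

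**Figure D2:**
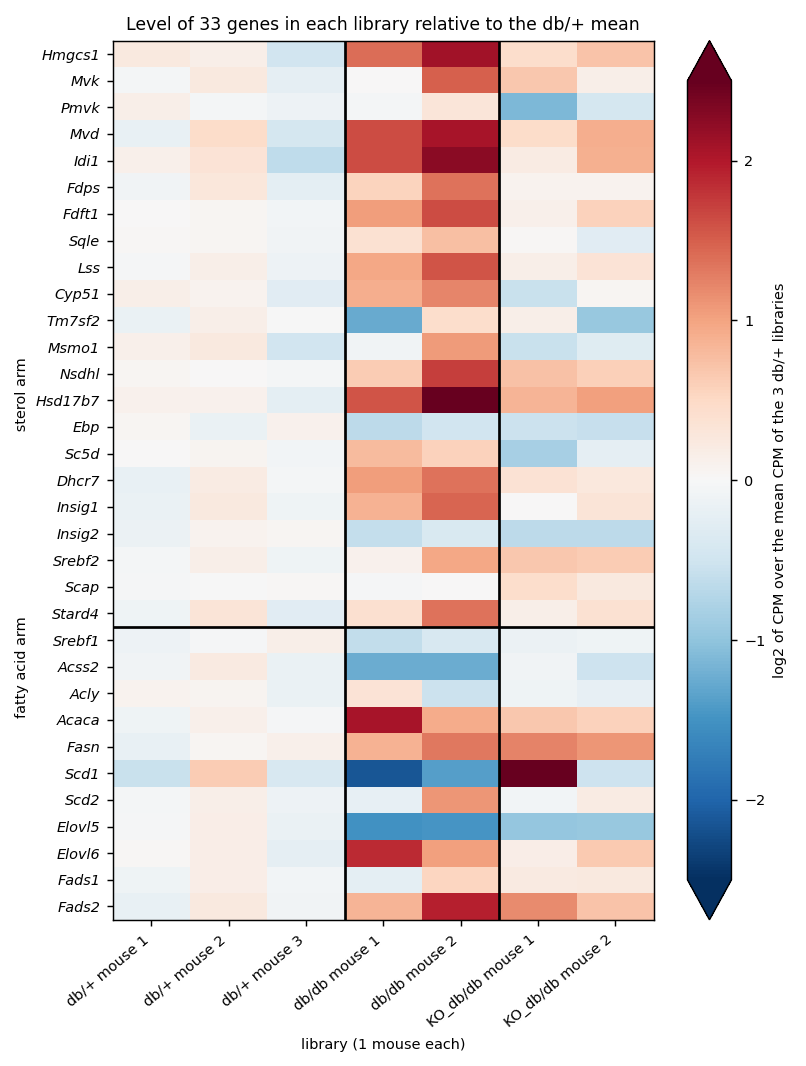
Level of 33 genes (rows) in each of the 7 libraries (columns), as log2 of the CPM over the mean CPM of the db/+ libraries, with colours clipped at -2.5 and 2.5. Acacb is left out because it was at or under the detection floor in db/+. In the db/db columns most of the sterol rows are red, while the fatty acid rows hold both colours.

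Among the enzymes of the mevalonate pathway, Hmgcs1, which makes HMG-CoA, had 99.3 and 161 CPM in db/db, 44.2, 41.6 and 26.8 CPM in db/+, and 50.9 and 61.9 CPM in KO_db/db libraries. Both db/db libraries lay above every other library, and both KO_db/db libraries lay above the db/+ libraries by a small margin. Compared to db/+, Hmgcs1 rose by 1.79 in db/db (standard error 0.27, adjusted p = 0.00344). Idi1, which isomerizes isopentenyl diphosphate, had 50.8 and 77.9 CPM in db/db, 17.9, 20.7 and 10.6 CPM in db/+, and 19.0 and 30.1 CPM in KO_db/db. The KO_db/db range overlapped that of db/+ and lay under that of db/db. Idi1 was higher in db/db than in db/+ by 1.97 (standard error 0.30, adjusted p = 0.00345). Mvd, the decarboxylase that forms isopentenyl diphosphate, had 10.5 and 14.2 CPM in db/db, 2.99, 4.67 and 2.49 CPM in db/+, and 4.64 and 6.39 CPM in KO_db/db. Its level in db/db was above that of every other library, with a log2 fold change over db/+ of 1.86 (standard error 0.29, adjusted p = 0.00411).

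The kinases of this pathway did not pass the test in db/db against db/+. Mvk, mevalonate kinase, had 7.14 and 19.9 CPM in db/db and 6.06 to 8.35 CPM in db/+, so that only 1 of the 2 db/db libraries exceeded the db/+ range, with an adjusted p of 0.112. Pmvk, phosphomevalonate kinase, had 11.6 and 14.7 CPM in db/db, 10.9 to 13.3 CPM in db/+, and 5.50 and 8.74 CPM in KO_db/db. The db/db and db/+ ranges overlapped, and both KO_db/db libraries lay under all the others. Fdps, which makes farnesyl diphosphate, had 42.6 and 74.7 CPM in db/db, 24.6 to 35.3 CPM in db/+, and 30.8 and 30.6 CPM in KO_db/db. Fdps rose by 1.01 in db/db (standard error 0.26, adjusted p = 0.0223).

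At the step to squalene, Fdft1, squalene synthase, had 86.7 and 129 CPM in db/db, 39.9 to 43.6 CPM in db/+, and 46.0 and 62.7 CPM in KO_db/db. The 3 groups did not overlap, with KO_db/db nearer to db/+. Fdft1 was higher in db/db than in db/+ by 1.36 (standard error 0.17, adjusted p = 0.00201). Sqle, the squalene epoxidase and a rate-limiting step, had 156 and 203 CPM in db/db, 113 to 124 CPM in db/+, and 123 and 98.5 CPM in KO_db/db, and it rose by only 0.57 in db/db (standard error 0.14, adjusted p = 0.0181). Lss, which closes the sterol ring, had 48.4 and 74.4 CPM in db/db, 22.8 to 27.4 CPM in db/+, and 27.4 and 31.7 CPM in KO_db/db. Lss rose by 1.29 in db/db (standard error 0.19, adjusted p = 0.00332).

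Among the enzymes that trim lanosterol to cholesterol, Hsd17b7 is a ketoreductase of the C4 demethylation. Its level was 15.5 and 37.1 CPM in db/db, 5.61, 5.58 and 4.40 CPM in db/+, and 9.32 and 10.6 CPM in KO_db/db. The 3 groups did not overlap, and the db/db libraries differed from each other by more than any other pair of this gene within a group. Hsd17b7 rose by 2.33 in db/db (standard error 0.36, adjusted p = 0.00359), or by 1.56 without db/db mouse 2 (adjusted p = 0.00504). Nsdhl, the decarboxylating dehydrogenase of the same step, had 17.03 and 36.7 CPM in db/db, 10.6 to 11.3 CPM in db/+, and 18.2 and 16.7 CPM in KO_db/db. Here the KO_db/db libraries reached the lower db/db library, and both were above db/+. Msmo1, the oxidase that opens the step, had 73.1 and 161 CPM in db/db and 55.4 to 91.6 CPM in db/+, which overlapped, and 52.2 and 63.0 CPM in KO_db/db. The demethylase Cyp51 (1.07), the desaturase Sc5d (0.68) and the reductase Dhcr7 (1.20) were higher in db/db by the log2 values given, with adjusted p-values of 0.0036, 0.00579 and 0.0022. Their KO_db/db levels were 26.3 and 40.2 CPM for Cyp51, 12.9 and 19.5 CPM for Sc5d, and 28.7 and 26.8 CPM for Dhcr7. Ebp, the sterol isomerase, went the other way. It had 13.4 and 15.1 CPM in db/db, 14.5 and 14.1 CPM in KO_db/db, and 18.8 to 22.6 CPM in db/+, and was lower in db/db by -0.58 (standard error 0.15, adjusted p = 0.0229). Tm7sf2, a sterol reductase with 1.85 to 5.95 CPM in all libraries, did not pass the test in any comparison.

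**Figure D3:**
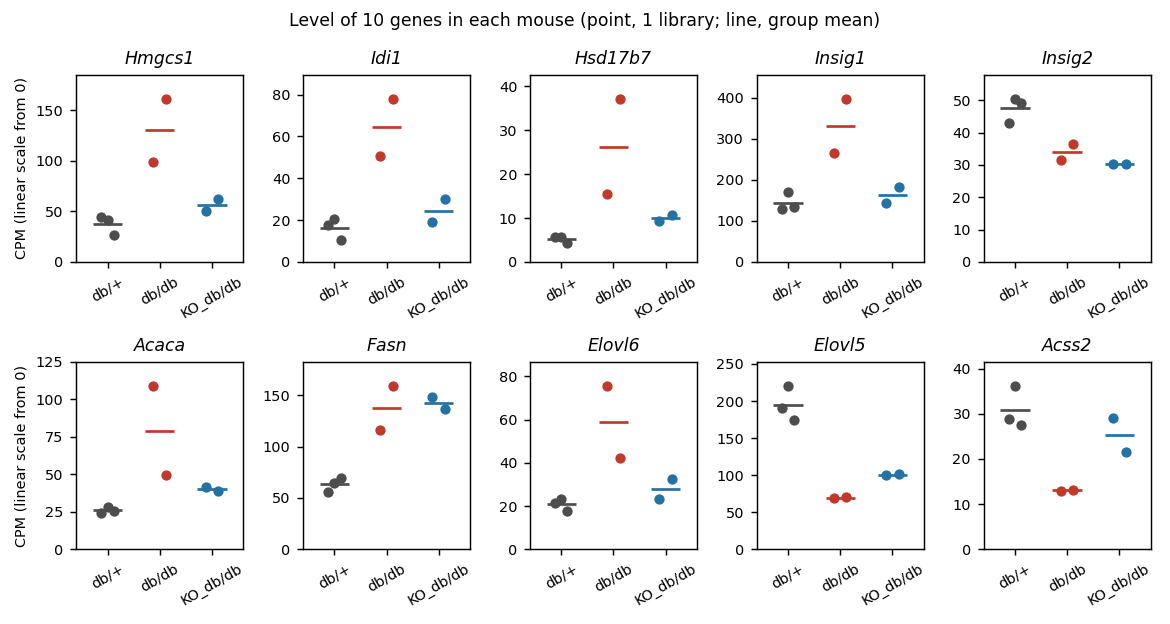
CPM (y axis, linear from 0) of 10 genes in each library. Points are single mice and lines are group means, in grey for db/+, red for db/db and blue for KO_db/db. For Hmgcs1, Idi1, Hsd17b7 and Insig1 both red points lie above all others, while for Elovl5 and Acss2 they lie below all others.

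The regulators did not share 1 direction. Insig1, itself a target of SREBPs, had 266 and 397 CPM in db/db, 129, 172 and 133 CPM in db/+, and 145 and 182 CPM in KO_db/db. Its db/db libraries lay above all others, and its KO_db/db and db/+ ranges overlapped. Insig1 was higher in db/db than in db/+ by 1.19 (standard error 0.20, adjusted p = 0.00558). Insig2, the second INSIG, had 31.5 and 36.6 CPM in db/db, 43.0, 50.4 and 49.1 CPM in db/+, and 30.3 and 30.2 CPM in KO_db/db. Both Lepr db/db groups lay under db/+ on this scale, with a log2 fold change in db/db of -0.49 (standard error 0.13, adjusted p = 0.0241), which was 0.000667 when libraries were scaled by total count alone. That scaling moved the log2 fold change of all genes by 0.49. Relative to it, Insig2 remained lower than the typical gene.

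Srebf2 had 103 and 185 CPM in db/db, 88.0 to 104 CPM in db/+, and 151 and 147 CPM in KO_db/db. The db/db libraries differed from each other by more than the KO_db/db and db/+ groups did, and the difference of 0.60 in db/db did not pass (adjusted p = 0.0900). Srebf1 had 58.1 and 67.1 CPM in db/db, 81.0 to 98.3 CPM in db/+, and 79.8 and 82.8 CPM in KO_db/db. It was lower in db/db than in db/+ by -0.52 (standard error 0.13, adjusted p = 0.0211). Scap, the SREBP escort, had 63.1 and 64.9 CPM in db/db and 62.8 to 65.7 CPM in db/+, which did not part, and 86.3 and 76.1 CPM in KO_db/db. Stard4, a carrier of cholesterol between membranes, had 29.1 and 56.4 CPM in db/db, 18.2 to 27.7 CPM in db/+, and 24.3 and 28.7 CPM in KO_db/db, with a log2 fold change of 0.95 in db/db (standard error 0.30, adjusted p = 0.0443).

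In the fatty acid arm, Acaca, acetyl-CoA carboxylase 1, had 109 and 49.7 CPM in db/db, 24.2, 28.5 and 25.4 CPM in db/+, and 41.6 and 39.0 CPM in KO_db/db. The 3 groups did not overlap, and db/db mouse 1 had the higher level. Acaca rose by 1.59 in db/db (standard error 0.29, adjusted p = 0.00718), or by 0.92 without db/db mouse 1 (adjusted p = 0.00515). Acacb, the mitochondrial carboxylase, had 0, 0 and 0.0346 CPM in db/+, 1.23 and 2.06 CPM in db/db, and 2.59 and 0.146 CPM in KO_db/db. Against the floor of 3 counts over the db/+ group, it was at least 44.2-fold higher in db/db, although at a very low level. Fasn, fatty acid synthase, had 116 and 159 CPM in db/db, 148 and 136 CPM in KO_db/db, and 55.6, 65.0 and 69.1 CPM in db/+. All 4 libraries of the 2 groups with Lepr db/db lay above db/+. Fasn rose by 1.11 in db/db (standard error 0.16, adjusted p = 0.00334).

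Elovl6, which extends palmitate to stearate, had 75.4 and 42.2 CPM in db/db, 17.8 to 23.2 CPM in db/+, and 23.3 and 32.4 CPM in KO_db/db. It rose by 1.49 in db/db (standard error 0.24, adjusted p = 0.00459), and db/db mouse 1 was again the higher. Fads2, the delta-6 desaturase of polyunsaturated fatty acids, had 11.1 and 23.8 CPM in db/db, 5.40 to 7.26 CPM in db/+, and 14.0 and 10.1 CPM in KO_db/db. Fads2 rose by 1.50 in db/db (standard error 0.32, adjusted p = 0.0123), and by 0.84 without db/db mouse 2 (adjusted p = 0.0429). Elovl5, the elongase of polyunsaturated fatty acids, went the other way. Its level was 190.4, 220 and 175 CPM in db/+, 68.7 and 70.0 CPM in db/db, and 100.4 and 101 CPM in KO_db/db, without overlap between the 3 groups. Elovl5 was lower in db/db by -1.50 (standard error 0.13, adjusted p = 0.000766). Acss2, which makes acetyl-CoA from acetate in the cytosol, had 13.0 and 13.1 CPM in db/db, 27.5 to 36.1 CPM in db/+, and 29.0 and 21.6 CPM in KO_db/db, and was lower in db/db by -1.25 (standard error 0.15, adjusted p = 0.00183).

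Scd1, a stearoyl-CoA desaturase, had 0.734 and 1.24 CPM in db/db and 2.21, 5.03 and 2.46 CPM in db/+, and was lower in db/db by -1.71 (standard error 0.50, adjusted p = 0.0346). The KO_db/db libraries had 21.0 and 2.26 CPM, and the higher of them was the library rich in acinar transcripts. Scd2, the isoform with the higher level per length in these cells, had 114 and 285 CPM in db/db and 122 to 147 CPM in db/+, which overlapped. Reads that fit several transcripts are divided among them by kallisto, so the split of counts between Scd1 and Scd2, and between Acaca and Acacb, is uncertain. Acly, ATP citrate lyase, had 1556 and 848 CPM in db/db, 1089 to 1293 CPM in db/+, and 1140.0 and 1063 CPM in KO_db/db, and Fads1 had 32.2 to 55.0 CPM in all 7 libraries. Neither passed the test in any comparison. Per kilobase of the longest transcript, Acly had the highest level of the 34 genes in every group, with means of 276 CPM per kb in db/+, 272 in db/db and 249 in KO_db/db, ahead of Insig1 in db/db (123) and Elovl5 in db/+ (70.1).

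Of the 25 genes called in db/db against db/+, 17 kept the call in each of the 5 fits that left out 1 library. Without db/db mouse 2, Fdps fell to 0.54 (adjusted p = 0.0989), Sqle to 0.36 (adjusted p = 0.0607), Stard4 to 0.38 (adjusted p = 0.264) and Nsdhl to 0.61 (adjusted p = 0.0357). Without db/db mouse 1, Ebp had -0.49 (adjusted p = 0.0756), Insig2 -0.39 (adjusted p = 0.0760), Srebf1 -0.42 (adjusted p = 0.0746) and Scd1 -1.39 (adjusted p = 0.131). Scd1 had -2.15 without db/db mouse 2 (adjusted p = 0.0542). Each of these 8 genes also lost the call without at least 1 of the db/+ libraries, with adjusted p-values of 0.0505 to 0.119. Hsd17b7, Idi1, Mvd, Hmgcs1, Fdft1, Lss, Elovl5 and Acss2 were among the calls that held in these 5 fits. The median of the sterol arm was 0.57 without db/db mouse 2 and 1.35 without db/db mouse 1. That of the fatty acid arm was 0.05 without db/db mouse 2 and 0.72 without db/db mouse 1.

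In the db/db group mouse 2 had the higher level for most genes of both arms. Mouse 2 exceeded mouse 1 for 16 of the 17 sterol enzymes, all but Sc5d. In the fatty acid arm mouse 2 exceeded mouse 1 for 9 of 12 genes, and mouse 1 was higher for Acly, Acaca and Elovl6. The share of all genes with a higher level in mouse 2 was not computed. Averaged over the 17 sterol enzymes, the log2 level relative to the db/+ mean was 0.64 and 1.32 in the db/db libraries, 0.05 and 0.18 in KO_db/db, and -0.19 to 0.15 in db/+. For 10 fatty acid enzymes, without Acacb, it was 0.09 and 0.24 in db/db, 0.51 and 0.15 in KO_db/db, and -0.11 to 0.21 in db/+. The difference of the sterol from the fatty acid mean was 0.54 and 1.08 in db/db, -0.46 and 0.03 in KO_db/db, and -0.08 to 0.14 in db/+. The sterol means of db/db were above those of the 5 other libraries, and KO_db/db mouse 2, at 0.18, lay just above the highest db/+ mean of 0.15. The value of KO_db/db mouse 1 for the fatty acid enzymes contains its high Scd1.

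**Figure D4:**
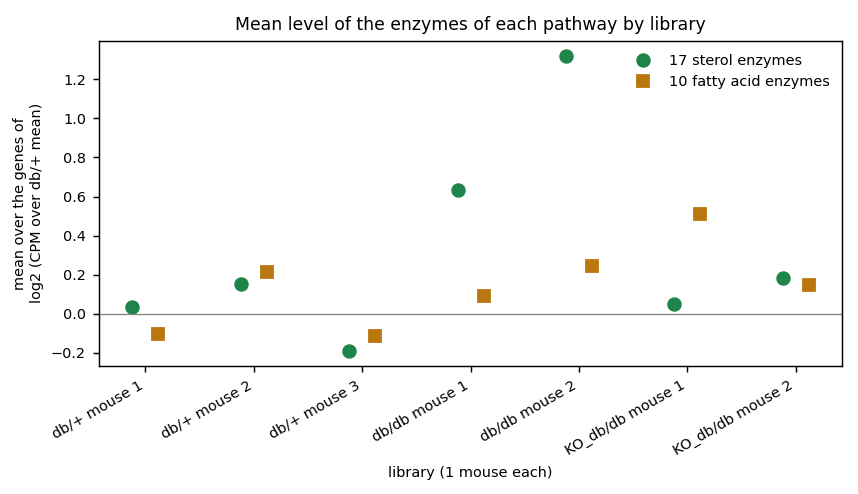
Mean over the genes of log2 CPM relative to the db/+ mean (y axis) for 17 sterol enzymes (green circles) and 10 fatty acid enzymes (amber squares) in each library (x axis). The sterol means of the db/db libraries, 0.64 and 1.32, are above those of the 5 other libraries.

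Loss of Aldh1a3 in db/db β-cells was read from KO_db/db against db/db. Sterol genes had lower levels in KO_db/db, but no gene of either arm passed an adjusted p under 0.05 in this comparison of 2 against 2 mice, in which 0.126% of all 13486 genes were higher and 0.193% lower by edgeR's quasi-likelihood test. At an unadjusted p under 0.05, 14 sterol arm genes were lower and 1 was higher, where 9.85% of all genes were lower and 20.9% passed in either direction. In the fatty acid arm 2 were lower and 4 higher. Both KO_db/db libraries lay under both db/db libraries for 16 of 22 sterol arm genes and for 13 of the 17 enzymes, where 29.1% of all genes lay under. Both lay above for 1 sterol arm gene, Scap, and for 4 fatty acid genes, Srebf1, Acss2, Scd1 and Elovl5, where 28.4% of all genes lay above. The median log2 fold change was -0.92 in the sterol arm, -0.99 among its enzymes and -0.05 in the fatty acid arm, beside -0.02 over all genes. The fatty acid median changed sign between fits that left out 1 library, from -0.23 to 0.29.

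The number of calls depended on the tool. DESeq2 called 13 sterol arm genes, all lower in KO_db/db, while it called 4.68% of all genes lower and 5.47% higher. Of the fatty acid arm it called 1 gene lower and 2 higher. A single edgeR fit of all 7 libraries called 6 sterol arm genes, all lower, with 2.28% of all genes lower and 3.66% higher, and 1 fatty acid gene, higher. This comparison and the one before share the db/db libraries, so that a high value in those 2 mice enters both. The fits with 1 library left out gave sterol arm medians between -1.08 and -0.57, the latter without db/db mouse 2.

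**Figure D5:**
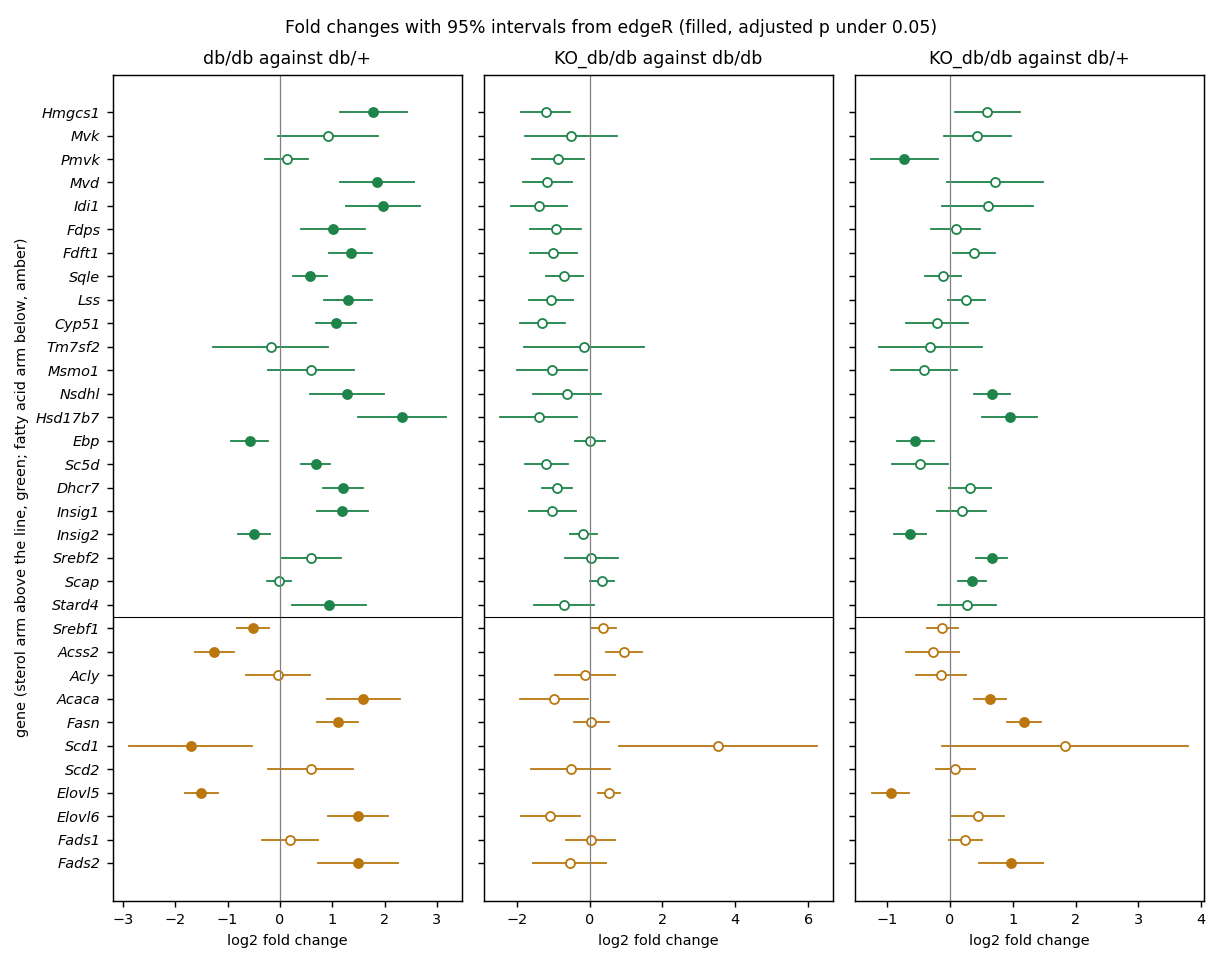
Log2 fold change (x axis) with its 95% interval from edgeR for each gene (y axis) in the 3 comparisons, sterol arm in green above the line and fatty acid arm in amber below. Filled points have an adjusted p under 0.05. The middle panel, KO_db/db against db/db, has no filled point, and most of its sterol intervals lie under 0. Acacb is not drawn.

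Of the single sterol genes, Dhcr7 came nearest to the threshold, at -0.90 (95% interval -1.31 to -0.49, adjusted p = 0.0905). Cyp51 had -1.30 (95% interval -1.92 to -0.68, adjusted p = 0.0955) and Sc5d -1.18 (95% interval -1.79 to -0.58, adjusted p = 0.104). All 3 act after the sterol ring is closed, but the enzymes after that step did not move alike. Hsd17b7 (-1.40) and Msmo1 (-1.03) also had lower levels, while Nsdhl (-0.63), Tm7sf2 (-0.15) and Ebp (0.0037) were further from the threshold. Hmgcs1 had -1.21, Idi1 -1.39, Mvd -1.16, Lss -1.06, Fdft1 -0.99, Fdps -0.94, Pmvk -0.88 and Sqle -0.70, with adjusted p-values between 0.116 and 0.185. For all 8 the 95% interval lay under 0, the widest being that of Idi1, from -2.17 to -0.61. Msmo1 had -1.03, Hsd17b7 -1.40, Insig1 -1.02 and Stard4 -0.69. Without db/db mouse 2, Msmo1 had -0.35 and Hsd17b7 -0.63. Nsdhl, Mvk, Tm7sf2 and Ebp were the 4 enzymes whose KO_db/db and db/db ranges overlapped.

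Among the fatty acid genes the highest value was that of Scd1, 3.53, with an interval from 0.81 to 6.25 and an adjusted p of 0.172. It rested on KO_db/db mouse 1, with 21.0 CPM against 2.26 CPM in mouse 2, where the acinar list took 17.3% of the counts, and it was 1.18 without that library (adjusted p = 0.631). The part of acinar RNA in this value was not tested. Acss2 had 0.95 (95% interval 0.46 to 1.45, adjusted p = 0.108), Elovl5 0.54 (95% interval 0.23 to 0.84, adjusted p = 0.123) and Srebf1 0.37 (95% interval 0.03 to 0.72, adjusted p = 0.218). These 3 genes were lower in db/db than in db/+, and their KO_db/db levels lay between the db/db and the highest db/+ level. Acaca had -0.98 and Elovl6 -1.08, with adjusted p-values of 0.224 and 0.168. Without db/db mouse 1, Acaca had -0.31. Fasn had 116 and 159 CPM in db/db and 136 and 148 CPM in KO_db/db, so that the KO_db/db values lay within the db/db range. Without KO_db/db mouse 1, the library with the most acinar transcripts, the sterol arm median was -0.87.

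Against the lean controls, 7 of the 22 sterol arm genes differed in KO_db/db β-cells. In KO_db/db against db/+, 4 of them were higher, 3 were lower and 15 did not pass. These counts were near the shares over all 13228 genes, of which 20.5% were higher and 17.9% lower. Of the 11 fatty acid genes tested, 3 were higher, 1 was lower and 7 did not pass. The median log2 fold change was 0.26 in the sterol arm and 0.24 in the fatty acid arm, or 0.34 with Acacb at its bound, beside -0.0034 over all genes. The db/+ libraries are shared with the first comparison.

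The higher sterol arm genes were Nsdhl (0.67, adjusted p = 0.0068), Hsd17b7 (0.95, adjusted p = 0.00881), Srebf2 (0.66, adjusted p = 0.00414) and Scap (0.35, adjusted p = 0.0239). Srebf2 and Scap had thus both passed here and not in db/db against db/+, a difference that was not itself called between KO_db/db and db/db. Pmvk (-0.73, adjusted p = 0.0422), Ebp (-0.55, adjusted p = 0.0154) and Insig2 (-0.65, adjusted p = 0.00529) were lower. Hmgcs1 had 0.60 (95% interval 0.08 to 1.11, adjusted p = 0.0677), Fdft1 0.38 (adjusted p = 0.0711), Dhcr7 0.32 (adjusted p = 0.113), Idi1 0.60 (adjusted p = 0.166) and Sc5d -0.48 (adjusted p = 0.0804), and none of these passed. In the fatty acid arm, Fasn (1.18, adjusted p = 0.001), Fads2 (0.97, adjusted p = 0.0133) and Acaca (0.64, adjusted p = 0.00589) were higher and Elovl5 (-0.95, adjusted p = 0.00242) was lower. Elovl6 had 0.44 (adjusted p = 0.0951). Acacb did not pass the filter on low counts. Against the floor of the db/+ group its KO_db/db mean was at least 36.8-fold higher, and the lower library, with 0.146 CPM, at least 3.92-fold higher.

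Of the 11 calls in KO_db/db against db/+, 7 held in every fit that left out 1 library. Pmvk was lower by -0.44 without KO_db/db mouse 1 (adjusted p = 0.147) and by -1.12 without mouse 2 (adjusted p = 0.0148), and had adjusted p-values of 0.0593 to 0.117 without single db/+ libraries. Without KO_db/db mouse 1, Scap had an adjusted p of 0.142, Fads2 of 0.0791 and Ebp of 0.0564. Ebp also had 0.0604 without KO_db/db mouse 2, and Ebp (0.0558) and Scap (0.0815) lost the call without db/+ mouse 1, Scap also without db/+ mouse 2 (0.0728). Fasn, Elovl5, Srebf2, Hsd17b7, Nsdhl, Insig2 and Acaca were the 7 that held. The sterol arm median was 0.13 without KO_db/db mouse 2, and 4 sterol arm genes were called without db/+ mouse 1, where 26.2% of all genes were called.

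Other genes of the same pathways were read from 3 lists outside the 34. Of 21 other genes of sterol and isoprenoid synthesis tested in db/db against db/+, 2 were higher and 5 were lower, with a median of -0.29. Over all genes 19.9% were higher and 18.0% lower. Ggps1, which makes geranylgeranyl diphosphate at a branch of the pathway, fell by 0.69, Coq2, of ubiquinone synthesis, fell by 0.83, and Erlin2, which helps to degrade sterol-regulated proteins, fell by 0.96 on the log2 scale. Ggps1 had 20.7 and 25.0 CPM in db/db, 30.9 to 40.4 CPM in db/+, and 15.8 and 23.0 CPM in KO_db/db. Ggps1 was thus under the lean range in both groups with Lepr db/db. In KO_db/db against db/+, 1 of the 21 was higher and 8 were lower, beside 20.5% and 17.9% over all genes. Among the lower were Erg28 (-0.99), Ggps1 (-0.90) and Fnta (-0.67), a subunit of protein farnesyltransferase.

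Of the genes of sterol uptake, export and storage, 7 of 25 rose and 5 fell in db/db relative to db/+, with a median of 0.24, near the shares of 19.9% and 18.0% over all genes. Scarb1, a receptor for high-density lipoprotein, had 36.8 and 33.7 CPM in db/db, 11.2 to 11.4 CPM in db/+, and 18.1 and 19.3 CPM in KO_db/db, and rose by 1.63 in db/db. Gramd1b, which moves cholesterol from the plasma membrane to the endoplasmic reticulum, rose by 1.32. The sterol exporter Abcg1 (-1.33), the cholesterol esterifying enzyme Soat1 (-1.13) and the lipoprotein receptor Vldlr (-0.99) were lower. In KO_db/db against db/+, 6 of 24 were higher and 4 lower (20.5% and 17.9% over all genes), with Gramd1b at 1.00 and Gramd1a at 0.84 among the higher and Abcg1 (-1.05), Stard3 (-0.75) and Gramd1c (-0.67) among the lower.

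Of 27 other fatty acid synthesis genes, 9 were higher and 4 lower in db/db, with a median of 0.0034, beside 19.9% higher and 18.0% lower over all genes. Acsl1, which activates fatty acids, rose by 1.27, Mid1ip1, which promotes the activity of acetyl-CoA carboxylase, by 1.05 and Aacs, acetoacetyl-CoA synthetase, by 1.13. Aacs had 119 and 46.1 CPM in db/db and 34.1 to 40.2 CPM in db/+, and Mid1ip1 had 133 and 86.5 CPM in db/db and 48.8 to 58.1 CPM in db/+. In both genes db/db mouse 1 was the higher. The dehydratases of fatty acid elongation Hacd2 (-1.32) and Hacd3 (-0.62) and the factor Mlx (-0.66) were lower. In KO_db/db against db/+, 3 were higher and 5 were lower, beside 20.5% and 17.9% over all genes. Mlxipl, the carbohydrate response factor ChREBP, had 174 and 144 CPM in KO_db/db, 89.4 and 102 CPM in db/db, and 51.6 to 66.2 CPM in db/+, and was higher in KO_db/db than in db/+ by 1.39 (adjusted p = 0.00117). Acsl1 (0.77) and Elovl4 (0.56) were the other higher genes, while Hacd3 (-0.89), Hacd2 (-0.74) and Cbr4 (-0.53) were lower. In KO_db/db against db/db none of the tested genes of the 3 lists passed in edgeR's quasi-likelihood test, with medians of -0.18, -0.23 and -0.26, and with 6 of 21, 6 of 24 and 7 of 27 genes at an unadjusted p under 0.05, near the 20.9% over all genes.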

How the data were processed

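Sorted β-cells of 7 mice were analysed, with groups and mouse numbers taken from the sample labels. The authors made poly-A libraries, sequenced them as paired reads of 100 bases (demultiplexed with bcl2fastq 2.19), and deposited a table of kallisto 0.44.0 estimated counts per gene (GRCm38) as whole numbers without normalization. The annotation release and the sort gate of these libraries are not given in the sources used here. No column was left unused (0). Estimated counts fold in reads that fit several genes, which makes close paralogs uncertain.

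For each comparison the libraries of both groups alone were fitted in R 4.3.3 with edgeR 4.0.16: genes were filtered by filterByExpr (minimum count 10), scaled by TMM and tested by the quasi-likelihood test with Benjamini-Hochberg adjustment over all genes tested with calls at an adjusted p under 0.05. Standard errors were derived from the fold change and F. For CPM, TMM factors were computed over the 7 libraries together. Depth was 27496645 to 35852785 counts. An exact permutation test of 1 gene (two-sided) could reach at best 0.333 with 2 against 2 mice and 0.1 with 2 against 3. The p-values weigh each difference against the spread between these mice, which edgeR moderates with information from all genes. Within each group no library was a copy of another, with a chi-square of counts of at least 17.0 per degree of freedom. Pairs between groups were not compared. Code was tested on simulated counts.

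Gene positions and transcript lengths came from the GENCODE annotation of GRCm38, which matched all 34 symbols, and promoter windows from RefSeq. Members and lists were chosen with earlier results of these data known. Named genes were all 34 members and, from each of 3 other pathway lists, up to 3 genes per direction with the largest fold change among those called in a comparison with db/+ and with a mean of at least 5 CPM; 3 further genes so picked are not reported here. Alternatives were RLE scaling, library size alone, counts without the acinar list and Reg genes or without Ins1 and Ins2, DESeq2 1.42.0, which the study's methods name, no filter, all 7 libraries in a single fit, the mouse number as a block, an adjusted p under 0.01, and leaving out each library, where a lone library was assumed to vary like the other group.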

Additional observations from a re-analysis of the deposited data

How the results depend on the processing

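The 25 members called in db/db against db/+ gave 325 values over 13 alternatives, of which 297 kept the call, 27 lost it and 1 changed sign (Insig2, 0.000667 with library size alone). The 11 called in KO_db/db against db/+ gave 143 values, of which 120 kept the call, 23 lost it and 0 changed sign. Among members not called, 19 of 408 values in KO_db/db against db/db changed sign. Scaling by library size alone shifted all genes by 0.49 (db/db against db/+), -0.25 (KO_db/db against db/db) and 0.22 (KO_db/db against db/+) on the log2 scale. With it the sterol arm median was 1.47 between db/db and db/+ and 0.49 between KO_db/db and db/+, and the fatty acid arm median 0.88 in db/db against db/+, so these moved by about the common shift. In KO_db/db against db/db the sterol arm had 0 calls in the edgeR fit, 15 with library size alone, 13 with DESeq2, 14 with no filter and 6 in the fit of all 7 libraries, all of them lower, and the fatty acid arm had 3, 3, 4 and 1 calls. Over all genes these settings called 1220 of 13486, 1369 of 13486, 1570 of 19621 and 818 of 13789, against 43 of 13486 in the edgeR fit. The cause of these differences in calls was not tested. At an adjusted p under 0.01 the sterol arm had 10 calls between db/db and db/+ and 4 between KO_db/db and db/+. The share of all genes at that threshold was not computed. For KO_db/db against db/+ the fit of all 7 libraries also gave 4 at an adjusted p under 0.05, with 33.4% of all genes called. Over the fits that left out 1 library, the sterol arm medians were 0.57 to 1.35, -1.08 to -0.57 and 0.13 to 0.34 in the 3 comparisons. The fatty acid arm medians were 0.053 to 0.72, -0.23 to 0.29 and 0.19 to 0.33.

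No mouse number marked a shared litter or day, and deviations of same-numbered mice correlated between -0.10 and 0.076, so the numbers were not read as pairs. A fit with the mouse number as a replicate block gave sterol arm medians of 0.81 (db/db against db/+), -0.90 (KO_db/db against db/db) and 0.18 (KO_db/db against db/+), with 15, 0 and 5 calls. Of all genes that fit called 33.7%, 0.163% and 28.6% in the same order. Members near the detection floor, such as Acacb, have no precise fold.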
